A study of Homo sapiens with 3 samples.

Results

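Sites in coding-transcript exons of GSG2, DCAF7 and CKM were described here as called places of DICER contact on these 3 mRNAs. Members were all clusters whose sense annotation named one of these genes together with a numbered exon of a RefSeq coding transcript. The rule gave 29 of the 43210 clusters in the 4 deposited lists: 9 of 11577 in replicate 1, 10 of 18065 in replicate 2, 5 of 5099 in replicate 3 and 5 of 8469 in the series-wide list, which holds clusters with reads from 2 or 3 replicates. Each gene had 1 recurrent site, present in every list, and these 3 sites account for 12 of the members below. The genes were selected on conversions, width and recurrence measured in these same lists. Those values, and the converted positions, reads and distinct reads of the same clusters, are a description, with no test. The data went against part of this description: DCAF7 was not narrow, and CKM was not strong in replicates 2 and 3.

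The study measured DICER contacts by PAR-CLIP in 3 replicates of 1 group. All carried the strain label FLAG:DICER Flp-In HEK293 T-Rex, which names the human embryonic kidney line HEK293 with epitope-tagged DICER at an Flp-In site, and T1, an RNase, in their titles. The tagged DICER is thus present in every library; a control library and a measure of mRNA abundance were not used here, and conversions mix contact with abundance. Nothing in the labels tells if the 3 were separate cultures, so the spread between them may be technical.

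DICER, an RNase III, cuts precursor miRNA hairpins and long double-stranded RNA into short duplexes. It can also hold an RNA without cutting it, and such sites have been called passive. In PAR-CLIP a photoreactive uridine is linked to the bound protein by ultraviolet light and read as a T-to-C conversion, so a conversion marks contact and does not show whether the RNA was cut. The lists give no read ends or read lengths, and cutting was not measured here.

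GSG2, called HASPIN in the RefSeq table, encodes haspin, a mitotic kinase of histone H3 that helps to place the chromosomal passenger complex at centromeres. Its site lay in the coding sequence of exon 1 (hg19, chr17:3627403-3627435 in the series-wide list, plus strand), opposite intron 26 of ITGAE, an integrin gene on the other strand. DCAF7 encodes a WD-repeat protein that acts as an adaptor for DYRK and HIPK kinases and for CUL4 ubiquitin ligases. Its site lay in the 3' untranslated region in exon 7 (chr17:61667869-61667941, plus strand). CKM encodes the creatine kinase of muscle, which regenerates ATP from phosphocreatine. Its site lay in the coding sequence of exon 4 (chr19:45818813-45818836, minus strand).

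The haspin site had the most conversions of all 4563 mRNA exon clusters in the series-wide list, and DCAF7 came second. GSG2 had 1904, 1426 and 147 conversions in replicates 1, 2 and 3. It ranked 2 of 6694, 1 of 7766 and 9 of 1882 among the mRNA exon clusters of the 3 lists. DCAF7 had 2153, 570 and 80 conversions and ranked 1, 5 and 32. Both sites were thus high in each replicate, above the 95th percentile of mRNA exon clusters, which was 55, 23 and 51 conversions.

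CKM was strong in 1 replicate only. Its site had 183, 14 and 15 conversions, with ranks of 54 of 6694, 848 of 7766 and 1098 of 1882. The median mRNA exon cluster had 13, 6 and 19 conversions in the 3 lists, so CKM lay below the median in replicate 3. The description of CKM as a strong site rests on replicate 1: its mean percentile by conversions was 75.9 ± 31.4 over the replicates (SD, n = 3), and 64.3 without replicate 1. By distinct reads (an attribute of the lists read here as the number of different reads), CKM had 10, 4 and 4 against medians of 2 in each list, at percentiles 96.3, 86.3 and 94.6. By conversions its percentiles were 99.2, 88.4 and 40.2, so the measures differed mainly in replicate 3.

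**Figure D1:**
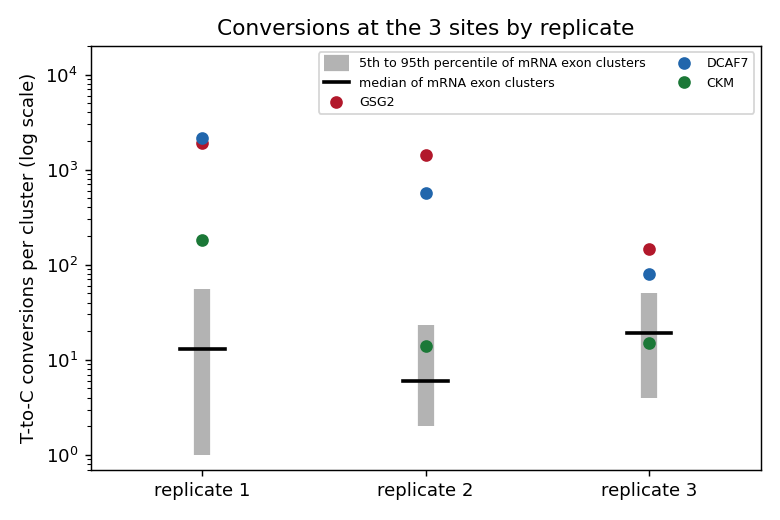
T-to-C conversions per cluster (log scale) at the recurrent site of each gene in replicates 1 to 3, with the median (black line) and the 5th to 95th percentile (grey bar) of all mRNA exon clusters of the same list. GSG2 and DCAF7 lie above the bar in each replicate, and CKM lies above it in replicate 1 and within it at 14 and 15 conversions in the other two.

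As a share of all conversions in mRNA exon clusters, GSG2 held 1.22% ± 0.823, DCAF7 0.831% ± 0.673 and CKM 0.0610% ± 0.0599 (SD, n = 3). The standard deviation came close to the mean for DCAF7 and CKM, and the GSG2 share ran from 0.334% to 1.96%. None of these shares is thus well fixed by 3 replicates. Without replicate 1 the DCAF7 share was 0.483% and the CKM share 0.0267%. The GSG2 share was 0.842% without replicate 2 and 1.66% without replicate 3. The ratio of conversions in replicate 1 to those in replicate 3 was above the median of recurrent sites at all 3 members: 13.0 for GSG2, 26.9 for DCAF7 and 12.2 for CKM, against a median of 1.62 over the other 455 mRNA exon sites overlapped in all 3 replicates. The corresponding ratio of replicate 1 to replicate 2 was 1.34, 3.78 and 13.1, against 1.92.

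Reads far outnumbered distinct reads at GSG2 and DCAF7, and at CKM in replicate 1. GSG2 had 1934, 1454 and 147 reads but 45, 59 and 18 distinct reads. DCAF7 had 2279, 600 and 104 reads and 88, 58 and 8 distinct reads. For CKM all reads carried the conversion, and reads equalled conversions at 183, 14 and 15. CKM had 18.3, 3.5 and 3.75 reads per distinct read, against medians of 5.57, 2.5 and 9, and so was high mainly in replicate 1 (percentile 99.2). In replicate 2 GSG2 had the most reads per distinct read of any mRNA exon cluster (24.6, against a median of 2.5), and in replicate 1 it had 43.0 against 5.57. In replicate 3 it had 8.17 against a median of 9, so the excess of reads per distinct read was not present there. Among the 7 mRNA exon clusters of replicate 3 with distinct reads within 1.5-fold of its own, GSG2 stood at percentile 14.3 by conversions, against 100 in replicates 1 and 2. Whether reads with the same ends came from 1 molecule cannot be read from the lists. Ranked by distinct reads, GSG2 was 11, 6 and 3 and DCAF7 was 4, 7 and 19 from the top of the 3 lists. Both were thus high on this measure, which comes from the same clusters and is no independent support.

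**Figure D2:**
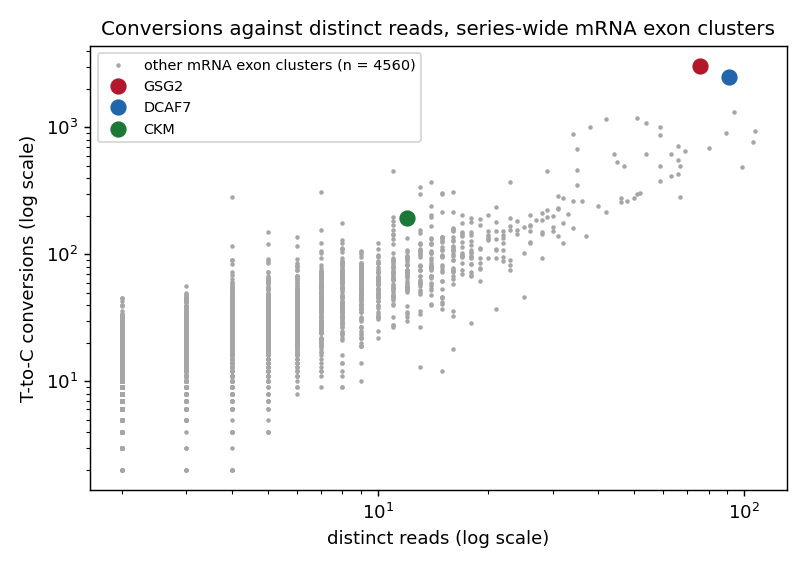
Conversions against distinct reads for the 4563 mRNA exon clusters of the series-wide list (both axes log scale); each grey point is a cluster and the coloured points are the 3 recurrent sites. GSG2 (3041 conversions, 76 distinct reads) and DCAF7 (2483 and 91) lie at the top, above other clusters of like distinct reads, and CKM has 193 conversions and 12 distinct reads.

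The sites differed in width and in the number of converted positions. GSG2 was narrow for its depth, with widths of 32, 32 and 23 nt in replicates 1, 2 and 3 and 33 nt series-wide, and 2, 1, 1 and 2 converted positions. Over all mRNA exon clusters a width of 33 nt is ordinary (series-wide median 38 nt). Clusters with more distinct reads tended to be wider: across mRNA exon clusters the Spearman correlation of width with distinct reads was 0.394, 0.564 and 0.297 in the 3 replicates (6694, 7766 and 1882 clusters of 1 library each), given as a description. Among series-wide clusters within 1.5-fold of GSG2 in distinct reads, 24 in number, widths ran from 45 to 218 nt with a median of 74, and converted positions from 3 to 16. None of these 24 was as narrow as GSG2 or had as few converted positions. In the replicates, 0 of 24, 0 of 15 and 0 of 7 such clusters were as narrow, and 0, 1 and 1 had as few converted positions. It was narrow for its depth in each list, but narrowness was part of the choice of the sites, so this is a description only. The series-wide list also draws on the same replicates.

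CKM had 1 converted position in every list and was the narrowest of the 3 sites in all but replicate 3, where GSG2 had 23 nt. The CKM cluster was 24 nt wide in all 4 lists. In replicate 1 no cluster of any kind was narrower than 24 nt, and 285 of its 6694 mRNA exon clusters had that width, so in that list CKM stood at the lower bound of width. By their attributes these lists had passed a filter on length, whose part in this width was not tested. Among clusters within 1.5-fold in distinct reads, 3 of 477, 53 of 1754 and 9 of 152 were as narrow as CKM in the 3 replicates, and 1 of 524 series-wide. A single converted position was common: 43.0%, 77.5% and 96.1% of mRNA exon clusters had 1 in the 3 replicates.

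DCAF7 was not a narrow site. Its widths were 73, 57 and 42 nt, at percentiles 98.1, 97.2 and 98.6 of mRNA exon clusters, and it had 12, 8 and 1 converted positions. Its width and converted positions were lower in the lists where it had fewer distinct reads (88, 58 and 8). Series-wide, at 73 nt and 12 positions, it was close to the medians of 82 nt and 10 positions of the 15 clusters with like distinct reads. In the replicates the matched mRNA exon clusters had median widths of 135.5, 67.5 and 34.5 nt, and 1 of 4, 4 of 16 and 35 of 44 were as narrow as DCAF7. For its depth it was thus below the median width in replicates 1 and 2 and above it in replicate 3.

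**Figure D3:**
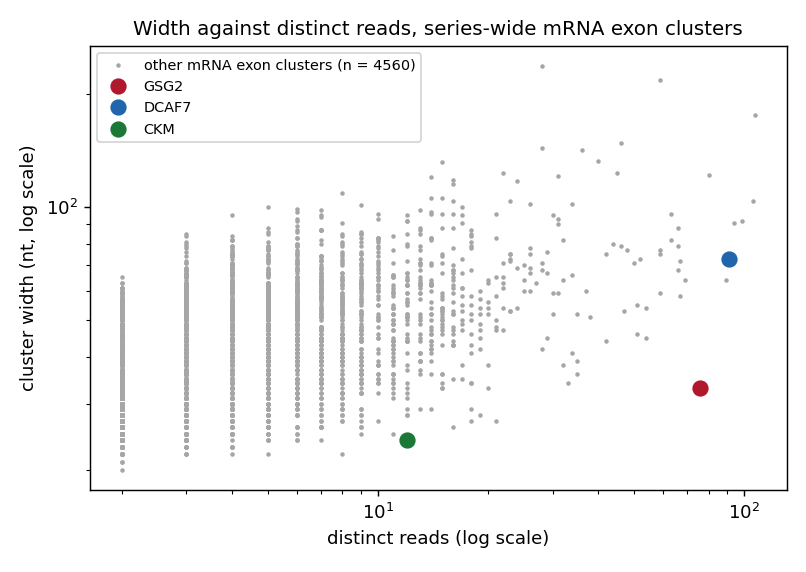
Cluster width against distinct reads for the mRNA exon clusters of the series-wide list (both axes log scale); each grey point is a cluster and the coloured points are the 3 recurrent sites. GSG2 (33 nt) lies below all clusters of like distinct reads, which start at 45 nt, CKM (24 nt) lies at the lower edge, and DCAF7 (73 nt) lies among the others.

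Against miRNA hairpins, the RNAs that DICER is known to cut, GSG2 was narrow and DCAF7 lay on either side of the median width. Hairpin clusters within 1.5-fold of GSG2 in distinct reads had median widths of 60, 62.5 and 45 nt in replicates 1, 2 and 3 (43, 28 and 19 clusters) and medians of 9, 10 and 5 converted positions. Of these, 3, 1 and 0 were as narrow as GSG2, and 1, 0 and 0 had as few converted positions. In replicates 1 and 2 only 0 and 1 of these hairpins had more conversions than GSG2, but 13 of 19 did in replicate 3. For DCAF7 the matched hairpins had median widths of 64, 62 and 32 nt and 13, 10 and 2 converted positions, beside its own 73, 57 and 42 nt and 12, 8 and 1. As narrow as DCAF7 were 29 of 33, 7 of 31 and 33 of 42 of them, so it was wide for a hairpin in replicates 1 and 3 and not in replicate 2. Of the hairpins matched to CKM, 2 of 48, 13 of 92 and 21 of 59 were no wider than its 24 nt. These are comparisons of cluster shape within 1 library each and were not tested.

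The crosslink position was the same at each site in each replicate. Each cluster carries a single position under the attribute ccr, an abbreviation used in PAR-CLIP for crosslink-centred region, whose computation the sources used here do not give. It was 3627418 for GSG2, 61667903 for DCAF7 and 45818824 for CKM in all 4 lists. Of the 458 mRNA exon sites overlapped in all 3 replicates, 43.2% shared this position across the replicates, so a constant position was common among recurrent sites. The position lay 14, 15 and 14 nt from the 5' end of the GSG2 cluster in replicates 1, 2 and 3, 12 nt from that of CKM in each, and 34, 24 and 14 nt from that of DCAF7. The first position of the GSG2 cluster moved by 1 nt over the replicates and the last by 9 nt. For DCAF7 they moved by 20 and 11 nt, against a median of 10 nt at either end over the other recurrent sites. For CKM they did not move, a pattern seen in 2.18% of the 458 sites. Because narrowness and recurrence chose the members, these shares are background and nothing is read from them.

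**Figure D4:**
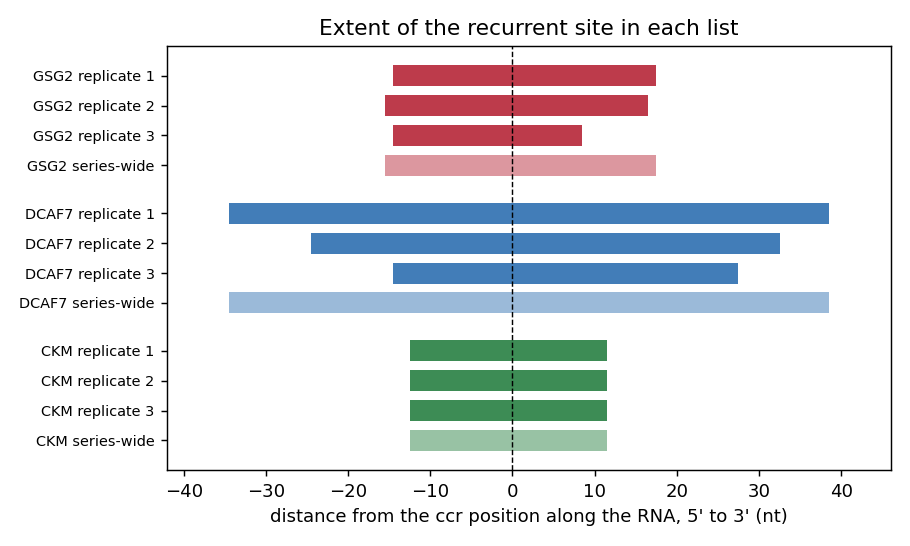
Extent of each recurrent site in replicates 1 to 3 and in the series-wide list, in nt from the ccr position along the RNA (dashed line at 0). GSG2 keeps its 5' end within 1 nt and is 9 nt shorter at the other end in replicate 3 than in replicate 1, DCAF7 spans 73 nt in replicate 1 and 42 nt in replicate 3, and CKM spans the same 24 nt throughout.

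All 3 sites were overlapped by a cluster in each replicate, as were 10.0% of mRNA exon clusters in the series-wide list. With an overlap of 50% of both clusters demanded, the count for the members was still 3, beside 6.75% of mRNA exon clusters. Each site also had reads from both sequencing runs of each replicate, as did 48.5%, 91.7% and 100% of mRNA exon clusters. The series-wide counts were below the sum of the replicates, at 3041 against 3477 for GSG2, 2483 against 2803 for DCAF7 and 193 against 212 for CKM, as they were at the other recurrent sites (median ratio 0.776).

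Nearly every read at GSG2 and CKM carried a conversion, and most did at DCAF7. Conversions made up 98.4% of reads at GSG2 in replicate 1 (95% exact Clopper-Pearson interval 97.8% to 99.0%), 98.1% in replicate 2 (97.2% to 98.7%) and 100% in replicate 3 (97.5% to 100%). At DCAF7 the share was 94.5% (93.5% to 95.4%), 95% (92.9% to 96.6%) and, lower, 76.9% in replicate 3 (67.6% to 84.6%). At CKM it was 100% in each, with lower limits of 98.0%, 76.8% and 78.2%. These intervals cover counting error only, and repeated reads make them too narrow. The median mRNA exon cluster was also at 100% in each replicate. By this share GSG2 stood at percentiles 36.8, 8.69 and 51.1 of mRNA exon clusters in replicates 1, 2 and 3. DCAF7 stood at 34.0, 8.22 and 0.744. Edits of other kinds numbered 19, 26 and 0 at GSG2, 36, 7 and 0 at DCAF7 and 0 in each replicate at CKM. As a share of all edits these were at percentiles 73.7, 95.9 and 49.4 of mRNA exon clusters for GSG2 and 74.2, 95.7 and 49.4 for DCAF7. The replicate 2 values, 1.79% and 1.21% of edits, were high for that list, where at least 95% of clusters had none.

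The other called clusters on these mRNAs had few conversions beside the recurrent sites. Some of them reached or passed the median mRNA exon cluster (13, 6 and 19 conversions in replicates 1, 2 and 3). Reads outside clusters are not in the lists. The other members were 4 clusters on GSG2 and 11 on DCAF7 in the replicate lists, and 2 on DCAF7 in the series-wide list, while CKM had none. On GSG2 they had 3 to 19 conversions and 2 distinct reads each, lay 310, 461, 2309 and 2503 nt downstream of the main crosslink position, and appeared in 1 replicate each. The recurrent site held 99.1%, 99.4% and 88.6% of the conversions in GSG2 exons in replicates 1, 2 and 3. On DCAF7 the other clusters had 2 to 30 conversions and at most 4 distinct reads; 9 lay in the 3' untranslated region, 1 in the 5' untranslated region and 1 in the coding sequence. Of these, a pair in replicates 1 and 2 overlapped and shared a crosslink position at -1057 nt from the main one, with 2 and 4 conversions. The main DCAF7 site held 96.8%, 95.5% and 83.3% of the gene's exon conversions.

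Other mRNA exon sites came close to CKM in conversions, distinct reads, width and converted positions, and less close to DCAF7 and GSG2. Series-wide, the 5 sites highest in conversions also held PFN1, the actin-binding profilin (1182), and SEPT11, a septin (1173). PFN1 had 741, 314 and 469 conversions in replicates 1, 2 and 3, and SEPT11 had 870, 318 and 274. Both were below GSG2 in replicates 1 and 2 and above it in replicate 3, where it had 147. Likeness was measured over the 458 recurrent sites as the distance in log2 conversions, log2 distinct reads, log2 width and converted positions, each divided by its standard deviation. SEPT11 was nearest to GSG2 (44 nt, 2 converted positions, distance 1.67), ahead of MAPRE1, a microtubule plus-end protein (2.11), and PFN1 (2.12). Nearest to DCAF7 were PGAM5, a mitochondrial phosphatase (64 nt, 12 positions, distance 1.23; 877, 132 and 21 conversions), and a pair of DICER1 coding sites (1.85 and 1.88), a gene that the cells also carry as a transgene. Nearest to CKM were TOMM22, a mitochondrial import receptor (26 nt, 1 position, distance 0.736; 270, 43 and 45 conversions), MYBL2, a cell cycle transcription factor (1.02), and CBX1, a heterochromatin protein (1.07).

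Partners of haspin in mitosis also carried clusters. Of 18 genes in this list, 13 had an mRNA exon cluster in any replicate and 5 had one in all 3: GSG2, AURKB, BIRC5, CDK1 and CCNB1. A cluster in any replicate was found for 30.5% of the 20052 RefSeq protein-coding genes. Over all genes, 14.5% of the 6342 with a cluster in any replicate had one in all 3, as did 4.49% of the protein-coding genes. BIRC5 and AURKB, both of the chromosomal passenger complex, had more conversions in each replicate than any other gene of the list but GSG2, with 769, 239 and 159 for BIRC5 over 10, 7 and 3 clusters and 362, 165 and 182 for AURKB over 1, 2 and 1. GSG2 exons had 1921, 1434 and 166, so AURKB was above GSG2 in replicate 3. CDK1, the main mitotic kinase, had 40, 29 and 38, and its cyclin CCNB1 had 59, 4 and 31. AURKC, BUB1, TTK, SGO1 and PDS5A had no cluster. GSG2 is itself in the list and was chosen for its clusters, and the list was not tested. Neither this list nor those below was matched to other genes in mRNA abundance, which was not used here.

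Of 20 genes of the CUL4 ligase and the kinases bound by DCAF7, 14 had a cluster in any replicate and 2 in all 3, DCAF7 and DDB1, the linker of the ligase (18, 11 and 30 conversions). These counts stand beside 30.5% and 4.49% of all protein-coding genes, and 2 of 14 is close to the 14.5% of genes with any cluster that had one in all 3. DYRK1A, a kinase that binds DCAF7, had 36 and 21 conversions in replicates 1 and 2 and no cluster in replicate 3. Against 2224, 597 and 96 conversions in DCAF7 exons, the highest of any other gene in the list was 38 (DCAF8) in replicate 1, 32 (DCAF8) in replicate 2 and 46 (CUL4B) in replicate 3. DCAF7 was thus the highest of its list in each replicate, and it was chosen for its conversions.

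In creatine metabolism, 4 of 8 genes had a cluster in any replicate and 2 in all 3, CKM and GAMT, which makes creatine (56, 14 and 11 conversions). Over all protein-coding genes the shares were 30.5% and 4.49%, and CKM was chosen for its clusters. CKB, the creatine kinase of brain and many other tissues, had 248 and 30 conversions over 12 and 4 clusters in replicates 1 and 2 and no cluster in replicate 3. The creatine kinases are similar in coding sequence, and the sources used here do not say how reads matching more than 1 place were treated. The lists carry the attributes map_qual and n_best, which these sources do not define and whose values are not given here. The assignment to CKM is thus uncertain in that respect. The mitochondrial kinases CKMT1A, CKMT1B and CKMT2 had none.

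Markers of muscle, where CKM is best known, and of germ cells, for which GSG2 was named, were without clusters. None of 25 skeletal muscle mRNAs, ACTA1, MYOD1 and DES among them, and none of 8 germ cell mRNAs had an mRNA exon cluster in any replicate, beside 30.5% of all protein-coding genes. Of 6 mRNAs chosen for HEK293 cells, VIM and LIN28B had one in all 3 replicates (1, 27 and 24, and 100, 20 and 28 conversions), NEFL had one in 2, and KRT8, KRT18 and NEFM had none. Over all protein-coding genes, 30.5% had a cluster in any replicate and 4.49% in all 3. With 3 or more distinct reads required, the HEK293 count in all 3 replicates was 0. A list of clusters gives no level for an mRNA without a called cluster, and does not show that DICER left it untouched.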

How the data were processed

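T-to-C conversions were measured by PAR-CLIP in 3 replicates. The authors deposited 1 cluster list per replicate and 1 series-wide list, with Bowtie2 2.1.0 and the hg19 build named in the submitters' processing notes. Per the file attributes, every cluster has an estimated false discovery rate of 5% and the replicate lists were filtered by length. The deposited conversion count per cluster is a whole number not normalised to depth, and the authors' entropy score was not used. Reads, distinct reads (attribute n_uniq, read here as distinct reads), widths and positions came from the attribute text.

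The members and the gene lists were chosen with earlier results of these data known. mRNA exon clusters were those with an exon of a numbered RefSeq coding transcript in sense and no small RNA annotation: 6694, 7766 and 1882 in the replicates, with 141090, 72589 and 44022 conversions, and 4563 series-wide. Percentiles counted the share of other clusters with a lower value and tied clusters at equal parts above and below. An overlap was 1 nt or more, strands matching. The genes named were the members, the 5 series-wide mRNA exon clusters with the most conversions, the 3 recurrent clusters nearest to each member, and list members with a cluster in all 3 replicates. List members with clusters in fewer replicates or none (DYRK1A, DCAF8, CUL4B, CKB and others) were named after their values were seen. A site that the rule names is not reported here. Overlaps and percentiles were tested on simulated clusters. No test between groups was made, since there was 1 group and the rule used the values. Python 3.11.15, pandas 2.3.3 and scipy 1.17.1 were used. Site sequences and predicted folds are not analysed here.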

Additional observations from a re-analysis of the deposited data

How the results depend on the processing

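Of the shares, percentiles and gene counts recomputed under other settings, 68 stayed within 1 SD of the replicates, or within 1.5 times for counts. Another 17 did not, and the cause was not tested. For shares and percentiles, leaving out 1 of 3 replicates cannot move a mean by 1 SD. Those settings could only stay within it, so the 68 is no measure of stability. The SD was also wide: a DCAF7 share of 0.267% by distinct reads, against 0.831%, counted as within it. No paired analysis was possible because there was 1 group of samples. By distinct reads the GSG2 share was 0.284% and the DCAF7 share 0.267%. With at least 3 distinct reads demanded, shares were 2.21% for GSG2, 1.41% for DCAF7 and 0.121% for CKM. The mean percentile of GSG2 was 98.5 among clusters with 3 or more distinct reads, 82.4 when ranked by conversions per distinct read and 71.4 among clusters with distinct reads within 1.5-fold, a setting chosen after the data were seen. For DCAF7 the same settings gave 94.7, 85.1 and 84.3, and clusters within 5 nt in width gave 92.0. In replicate 3 GSG2 stood at percentile 14.3 among its 7 clusters of like distinct reads. With 3 or more distinct reads required, the genes with a cluster in all 3 replicates numbered 3 for haspin and mitosis, 1 for DCAF7 and CUL4, 1 for creatine and 0 for HEK293. Leaving out 1 replicate gave ranges of 5 to 8, 3 to 7, 2 to 3 and 2 to 3 for these lists, and shares of 0.842% to 1.66% for GSG2, 0.483% to 1.16% for DCAF7 and 0.0267% to 0.0819% for CKM. Without replicate 3, 8 genes of the haspin list and 7 of the DCAF7 list qualified, and without replicate 2, 4 of the DCAF7 list. The shares of all genes under these settings are not given here. Replicate 3 had 1882 mRNA exon clusters against 6694 and 7766, so leaving it out loosens the demand for all genes as well. Nothing about the lists is read from these counts. With 1 replicate left out, the mean percentiles ranged from 99.8 to 99.99 for GSG2, 99.1 to 99.97 for DCAF7 and 64.3 to 93.8 for CKM. Distinct reads of 4 at CKM in replicates 2 and 3 limit what can be said of its shape there.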

Other observations

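Of the 3 genes, 2 also had an intron cluster that the member rule left out, each in replicate 2 alone. On CKM it lay over Alu and MIR repeats (28 nt, 5 conversions from 2 distinct reads), and on DCAF7 over an Alu and a simple repeat (23 nt, 3 conversions from 2 distinct reads).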
